A study of Homo sapiens with 8 samples.

Results

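Cells of the line RPE-1 that received no all-trans-retinal (atRAL) were compared between 1 h and 6 h of culture, over 4 RNA-seq libraries. RPE-1 is a human retinal pigment epithelial line immortalised with telomerase (hTERT). At each time 1 library came from untreated cells and 1 from cells given extracellular vesicles (EV) of tonsil-derived mesenchymal stem cells at 2000000000 particles per ml. All 4 cultures held 2500000 cells in DMEM/F-12 with fetal bovine serum. The 6 h libraries were set against the 1 h libraries within each EV status, which gave an untreated pair and an EV pair. Genes with 100 or more counts in at least 1 of the 4 libraries were described, 12802 of the 46427 genes in the table. The series holds 8 libraries, and the other 4 received atRAL at 25 µM with or without EV.

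Cells moved to a new medium or given serum switch on immediate early genes such as FOS and EGR1, whose mRNAs are short-lived and whose products start later waves of transcription. Hypoxia-inducible factors drive genes of glycolysis and mitochondrial turnover when oxygen at the cells is low. ATF4 is the central transcription factor of the integrated stress response, and heat shock factor drives the genes of cytosolic chaperones. The labels give neither the time of the last medium change nor the density of the cells.

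Between 1 h and 6 h 22 genes fell and 5 rose, and the 22 were led by a guanine nucleotide exchange factor for RAP proteins, a liprin and genes of the immediate early, hypoxia and ATF4 programmes. RAPGEF4 fell 8.17-fold, PPFIA4 4.61-fold, CHAC1 3.76-fold and MAFF 3.66-fold. DIO2, the deiodinase that activates thyroid hormone, rose 5.19-fold, the splicing kinase gene CLK4 2.84-fold and the chaperone gene HSPA8 1.98-fold. The 27 called genes were 0.158% of the 17044 tested (edgeR, adjusted p under 0.05). By direction, 0.0293% were called higher and 0.129% lower.

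All 27 had 100 or more counts, changed at least 1.5-fold in the same direction in both pairs, and did not overlap between the times. The call itself favours genes whose 2 pairs agree, so these traits add no support to it. Over the 12802 genes, 184 (1.44%) were at least 1.5-fold higher in both pairs and 207 (1.62%) at least 1.5-fold lower. Both 6 h libraries lay above both 1 h libraries for 3997 genes (31.2%) and below them for 3287 (25.7%). The median log2 change was 0.018, which the scaling sets near 0. The spread used in this test was pooled over all 8 libraries. Each condition has 1 library, so that spread is how far the EV effect differed between 1 h and 6 h within each atRAL status. An EV effect seen at 1 h only therefore counts as spread. Fitted on the 4 libraries alone, which leave 1 residual degree of freedom, 710 of 16382 genes were called (4.33%), 334 higher (2.04%) and 376 lower (2.3%). Of the 12802 genes, 689 were called in that fit (5.38%), 325 higher and 364 lower, and all 27 genes were among them.

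Each of the 27 calls was lost when any 1 of the 4 libraries was left out of the fit, which left 0 genes called without the untreated 1 h, the EV 1 h, the untreated 6 h or the EV 6 h library. The smallest adjusted p was then 0.11, 0.22, 0.21 and 0.33 (edgeR), and 1670, 719, 1639 and 714 genes had an unadjusted p under 0.05. Fits of the 3 libraries left without each of these in that order, which also drop the EV term since it would leave no residual degrees of freedom, called 91, 23, 2054 and 613 genes, beside 710 in the 4 libraries with the EV term. All 27 genes kept their direction in these fits, which follows from levels that did not overlap between the times. When 1 library is left out and the EV term is kept, cells without atRAL leave no residual degrees of freedom. The spread then comes from the atRAL libraries alone, so those fits cannot show whether a call rests on 1 library. The labels name no separate cultures for repeats of a condition, so p-values measure the spread between these libraries only.

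The 4 libraries held 56145424 (untreated, 1 h), 58890623 (EV, 1 h), 71223316 (untreated, 6 h) and 71822269 (EV, 6 h) counts, so the 6 h libraries were deeper. Mitochondrially encoded mRNA made up 5.42% to 5.97% of the counts and long noncoding RNA 0.75% to 0.8%. Levels below are counts-per-million (CPM), scaled by the trimmed mean of M-values, and 3 counts correspond to 0.0418 to 0.0534 CPM. The epithelial keratin genes KRT8 and KRT18 stood at 606 to 803 and 379 to 453 CPM, and the eye-field genes SIX3 and PAX6 at 76.3 to 99.3 and 34.5 to 46.3. Defining genes of mature pigment epithelium were at or near 0, with TYR, TYRP1 and DCT at 0 counts in all 4 libraries and RPE65 at no more than 0.122 CPM. CDH5, CLDN5 and ERG of endothelium, CD3E and LYZ of leukocytes and SAG of photoreceptors were at 0 counts. Other markers on these lists were present, with CD68 of the leukocyte list at 87.6 to 97.1 CPM, EGFL7 of the endothelial list at 6.33 to 7.1 and TUBB3 of the neural list at 198 to 389. The summed level was 10.7 to 14.4 CPM for 10 endothelial markers, 3 of them at 0 counts in all 4 libraries, and 91.7 to 102 CPM for 12 leukocyte markers, 7 of them at 0. It was 200 to 391 CPM for 12 neural markers, 5 of them at 0, and 24.7 to 30.8 CPM for 10 keratinocyte and simple epithelial markers, 3 of them at 0. Mesenchymal markers summed to 6831 to 7718 CPM over 12 genes, most of it VIM. The part of such cells in the results was not tested. In bulk RNA, fewer cells of a type and less RNA per cell cannot be told apart.

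**Figure D1:**
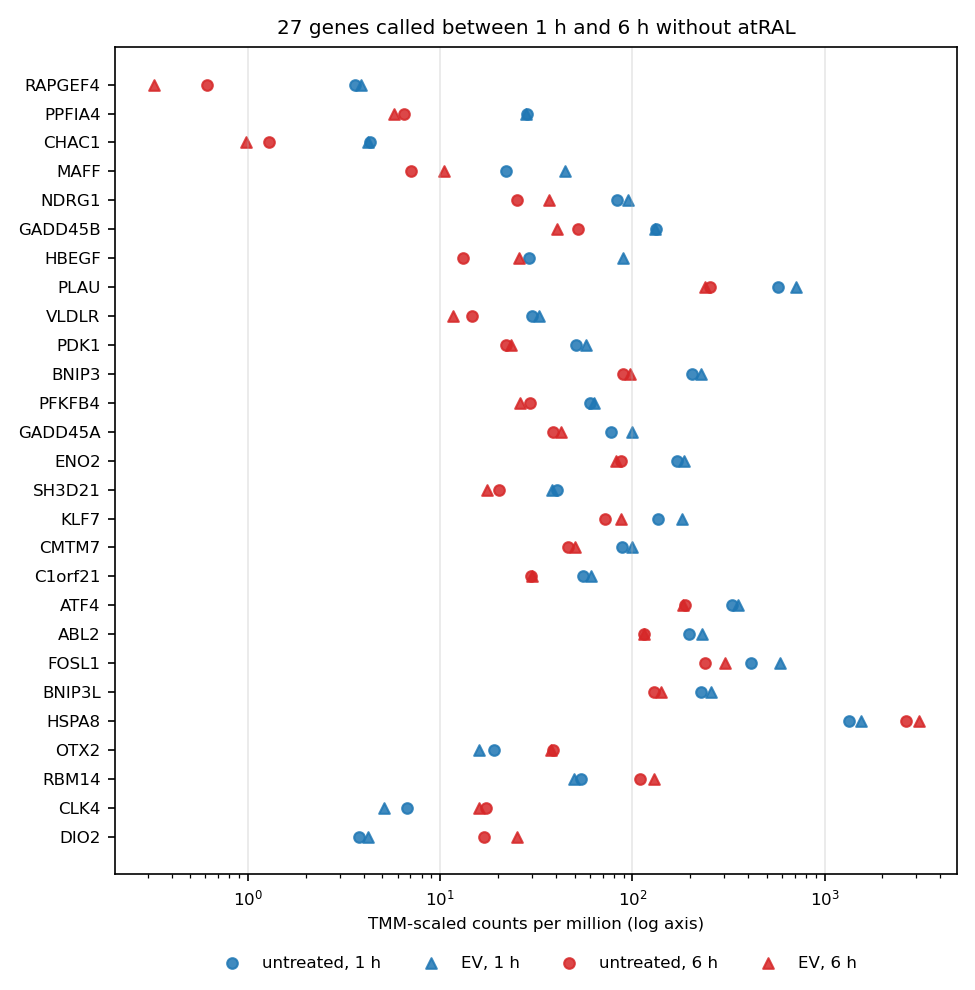
Levels of the 27 called genes in the 4 libraries without atRAL, on a log axis of TMM-scaled CPM (circles untreated, triangles EV, blue 1 h, red 6 h; each point is 1 library). The 1 h and 6 h points do not overlap for any of the 27 genes, and 22 of them have the 6 h points on the left.

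Promoters of 6 members are shown from RefSeq (GRCh38.p14), since the groups below are known for particular promoter elements. Each run is 250 bases, 5′ to 3′ on the strand of the gene, and all but that of HSPA8 end at the start of the gene. The HSPA8 run lies inside the span given for that gene (chr11:123057489-123062462, minus strand). EGR1 is an immediate early gene that did not pass the test, BNIP3 and ENO2 are genes of the hypoxia list, PPFIA4 had the second lowest change of the called genes, CHAC1 is a target of ATF4 and HSPA8 encodes a chaperone. In EGR1 the capitals mark 2 CArG boxes, the sites of serum response factor, which begin 105 and 83 bases before the start. In BNIP3, ENO2 and PPFIA4 they mark ACGTG, the core of the hypoxia response element, which in BNIP3 and PPFIA4 reads on both strands as the overlapping CACGTG of an E-box. In HSPA8 they mark GAANNTTC, a pair of heat shock element units, and in CHAC1 the reverse complement of TGATGCAA, the core of the amino acid response element.
EGR1 promoter, chr5:138465229-138465478, plus strand: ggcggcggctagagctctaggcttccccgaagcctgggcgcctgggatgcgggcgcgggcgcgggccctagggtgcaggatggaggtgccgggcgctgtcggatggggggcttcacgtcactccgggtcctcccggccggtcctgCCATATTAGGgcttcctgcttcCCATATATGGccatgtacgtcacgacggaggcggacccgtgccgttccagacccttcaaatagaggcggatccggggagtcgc
BNIP3 promoter, chr10:131981924-131982173, minus strand: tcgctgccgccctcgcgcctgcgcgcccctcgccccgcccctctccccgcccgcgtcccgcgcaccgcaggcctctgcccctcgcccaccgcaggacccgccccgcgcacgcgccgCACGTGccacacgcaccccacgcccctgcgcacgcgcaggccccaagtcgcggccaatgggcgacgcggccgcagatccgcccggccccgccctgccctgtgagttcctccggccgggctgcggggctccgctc
ENO2 promoter, chr12:6914330-6914579, plus strand: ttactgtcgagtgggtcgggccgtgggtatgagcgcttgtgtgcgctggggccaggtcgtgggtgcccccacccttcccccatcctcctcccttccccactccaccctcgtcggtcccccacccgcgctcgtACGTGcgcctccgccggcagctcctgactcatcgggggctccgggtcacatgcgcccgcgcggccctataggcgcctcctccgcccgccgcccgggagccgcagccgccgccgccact
PPFIA4 promoter, chr1:203026241-203026490, plus strand: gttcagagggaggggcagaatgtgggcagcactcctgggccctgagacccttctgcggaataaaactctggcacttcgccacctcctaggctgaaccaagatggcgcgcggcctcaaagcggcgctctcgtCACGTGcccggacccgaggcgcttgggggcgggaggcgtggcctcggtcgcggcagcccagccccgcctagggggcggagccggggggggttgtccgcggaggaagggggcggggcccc
HSPA8 promoter, chr11:123062137-123062386, minus strand: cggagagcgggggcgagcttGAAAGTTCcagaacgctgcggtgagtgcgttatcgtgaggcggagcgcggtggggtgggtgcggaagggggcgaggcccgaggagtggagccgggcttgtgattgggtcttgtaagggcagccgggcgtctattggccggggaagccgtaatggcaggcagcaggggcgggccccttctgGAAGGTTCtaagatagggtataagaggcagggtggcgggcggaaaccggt
CHAC1 promoter, chr15:40953221-40953470, plus strand: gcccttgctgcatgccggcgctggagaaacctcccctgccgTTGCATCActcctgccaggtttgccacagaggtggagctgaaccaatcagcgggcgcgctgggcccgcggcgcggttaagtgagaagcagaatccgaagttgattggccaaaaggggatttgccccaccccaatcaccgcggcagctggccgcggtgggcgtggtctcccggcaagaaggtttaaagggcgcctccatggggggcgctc

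A set of 7 motifs was searched on both strands of such windows, and 10128 of the 12802 genes had one. ACGTG was in 23.8% of all windows, in 12 of 26 of the hypoxia and glycolysis list (46.2%) and in 6 of 17 of the genes that fell (35.3%). Other lists had like shares of ACGTG, with 8 of 18 circadian clock genes (44.4%) and 6 of 17 heat shock genes (35.3%). The immediate early list had ACGTG in 8 of 24 (33.3%) and the ATF4 list in 4 of 26 (15.4%). Among the genes called lower in the 4 libraries alone it was in 29.0%. GAANNTTC was in 4.04% of all windows and in 6 of 17 of the heat shock list. The CArG box was in 1.05% of all windows and in 2 of 24 of the immediate early list, and TGATGCAA was in 0.355% of all and in 2 of 26 of the ATF4 list. CACGTG, which overlaps ACGTG, was in 9.01% of all windows and in 5 of 17 of the genes that fell. A match describes these letters in these windows and is not evidence of a bound site.

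Immediate early genes had the lowest median log2 change of the 36 lists, and 2 of the 32 with 100 counts passed the test, both lower. Beside them, 22 of all 12802 genes with 100 counts were called lower (0.129% of the 17044 tested). The untreated and the EV pair differed in the size of the change. In this test such a difference counts as spread, so a gene that was not called may still have changed in both pairs. EGR1, a zinc finger transcription factor induced by growth factors, stood at 227 CPM in the untreated and 1900 in the EV library at 1 h, and at 46.2 and 50.3 at 6 h. Both 6 h libraries were below both 1 h libraries, and the EV 1 h library stood far above the rest. The log2 change was -3.77 ± 1.68 SE, with -2.30 in the untreated pair and -5.24 in the EV pair (adjusted p = 0.46, edgeR).

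FOSB, EGR3 and FOS shared that order. FOSB, a partner of JUN in the AP-1 factor, stood at 11.9 (untreated) and 189 CPM (EV) at 1 h, and at 1.52 and 1.74 at 6 h. EGR3 stood at 16.4 and 288 CPM at 1 h, and at 1.94 and 4.97 at 6 h. FOS stood at 2.19 and 41.3 CPM at 1 h, and at 1.13 and 0.742 at 6 h. In each of these genes the EV 1 h library was the highest, and the untreated 1 h library was also above both 6 h libraries.

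JUNB stood at 93.3 and 395 CPM at 1 h, and at 39.1 and 35.3 at 6 h. JUN stood at 142 and 437 CPM at 1 h, and at 113 and 152 at 6 h, where the times overlapped. Adjusted p for FOSB, EGR3, FOS, JUNB and JUN ran from 0.42 to 0.70. Neither EGR2 (log2 change -4.10) nor ATF3 (-3.89), which encodes a stress-induced repressor of the ATF family, passed the test.

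The 2 members that passed had pairs of like size. MAFF, a small MAF factor without a transactivation domain, stood at 22.1 and 44.6 CPM at 1 h, and at 7.01 and 10.5 at 6 h (log2 change -1.87 ± 0.14, adjusted p = 0.020). GADD45B, a stress and growth arrest gene, stood at 133 and 131 CPM at 1 h and at 51.8 and 40.6 at 6 h (-1.53 ± 0.16, adjusted p = 0.027). GADD45B was unlike most members in that its 1 h libraries were level with each other.

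Among the 32 members 30 had a log2 change below 0, against a median of 0.018 over all genes. The median of the list was -1.49, with -0.82 in the untreated pair and -2.1 in the EV pair. In 22 members both 6 h libraries lay below both 1 h libraries, against 25.7% of all genes. At least 1.5-fold lower in both pairs were 19, against 1.62% of all genes, and 29 had their highest level in the EV 1 h library. BTG2, an antiproliferative gene, went the other way, from 3.26 and 5.08 CPM at 1 h to 9.56 and 6.69 at 6 h (log2 change 0.97 ± 0.58, adjusted p = 0.49). EGR4 had 0 counts in all 4 libraries. ARC, with 0 counts in 3 of them, had fewer than 100 in every library.

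Other members included CCN1 and CCN2, matricellular genes that serum response factor and YAP drive. CCN2 stood at 1320 and 2309 CPM at 1 h and at 760 and 504 at 6 h, and CCN1 at 1159 and 1775, then 662 and 575. Both genes were lower in both pairs, and neither passed (adjusted p = 0.30 and 0.50). MYC stood between 77.9 and 121 CPM with overlapping times. The members called in the 4 libraries alone were MAFF, GADD45B, IER5 (adjusted p = 0.0017) and NPAS4 (adjusted p = 0.015). All were lower, beside 364 lower of all 12802 genes.

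**Figure D2:**
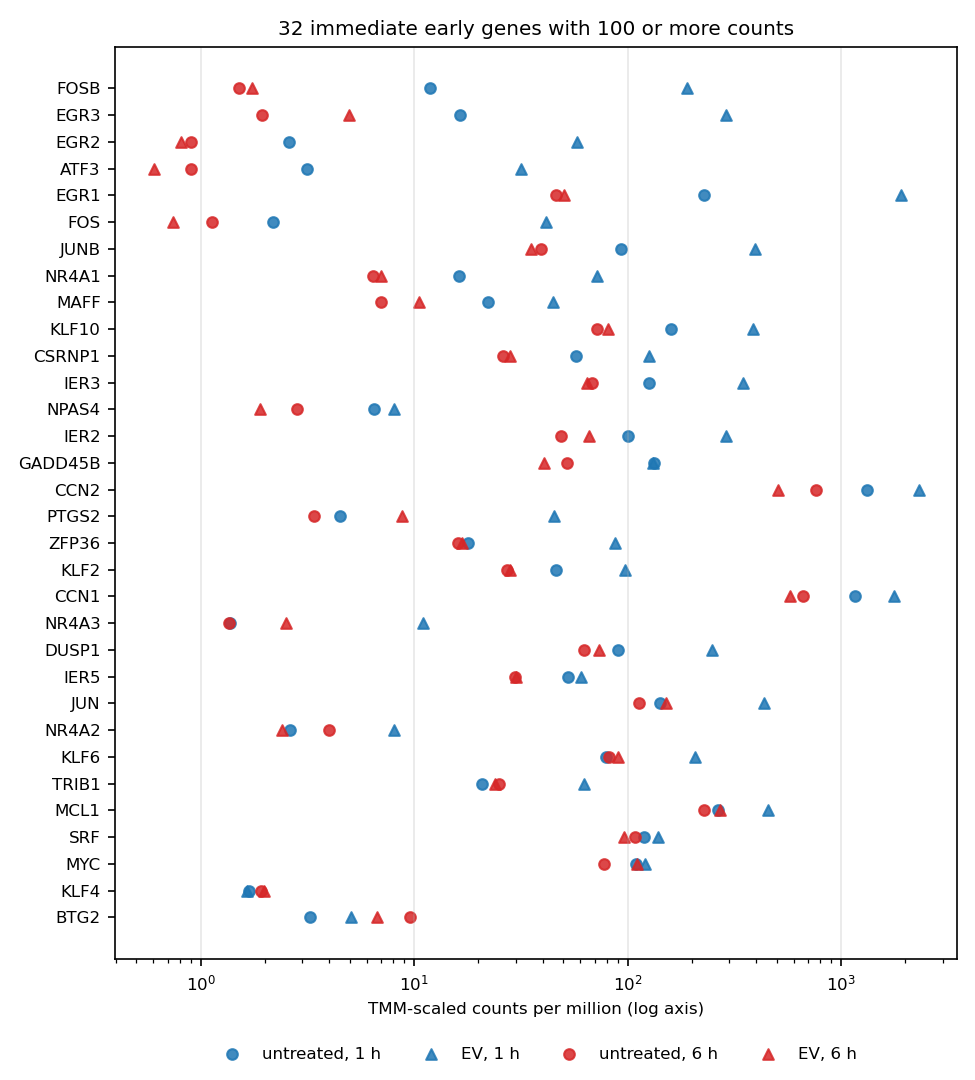
Levels of the 32 immediate early genes with 100 or more counts in the 4 libraries, on a log axis of TMM-scaled CPM (circles untreated, triangles EV, blue 1 h, red 6 h; each point is 1 library). The EV 1 h library is the highest for 29 of the 32 genes, and the 6 h libraries lie together to the left for most.

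Delayed growth factor genes, which follow the immediate early wave, held 2 called members of 23, FOSL1 and HBEGF, both lower. Of the 17044 genes tested, 0.129% were called lower. FOSL1, the AP-1 subunit FRA-1, stood at 412 and 585 CPM at 1 h and at 239 and 302 at 6 h (log2 change -0.87 ± 0.09, adjusted p = 0.021). HBEGF, a ligand of the EGF receptor, stood at 29.0 and 89.6 CPM at 1 h and at 13.1 and 25.8 at 6 h (-1.48 ± 0.15, adjusted p = 0.027). The EV 6 h level of HBEGF lay just under the untreated 1 h level, so the times barely separated. The list had a median log2 change of -0.27, and 6 members were called lower in the 4 libraries alone, beside 364 of all 12802 genes. Among the 6 were the ERK phosphatase gene DUSP5 (adjusted p = 0.022) and the cytokine gene LIF (adjusted p = 0.0037). SPRY4 and SPRY2, inhibitors of receptor tyrosine kinase signalling, had log2 changes of -1.3 and -0.88 and did not pass (adjusted p = 0.23 and 0.42).

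PLAU, which encodes the urokinase plasminogen activator, stood at 573 and 708 CPM at 1 h and at 253 and 239 at 6 h (log2 change -1.38 ± 0.13, adjusted p = 0.021). VLDLR, a receptor of very low density lipoprotein and reelin, stood at 30.1 and 32.6 CPM at 1 h and at 14.7 and 11.7 at 6 h (-1.25 ± 0.13, adjusted p = 0.027). Both genes fell to less than their 1 h levels in each pair, without overlap.

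Genes known to be induced by hypoxia held 6 of the 22 genes that fell. BNIP3, a mitochondrial receptor for mitophagy, stood at 204 (untreated) and 227 CPM (EV) at 1 h and at 89.2 and 97.1 at 6 h. The 6 h levels lay well under the 1 h levels, and the log2 ratio was -1.19 in the untreated and -1.22 in the EV pair. The log2 change was -1.21 ± 0.10 (adjusted p = 0.020, edgeR).

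NDRG1, a stress-responsive gene of differentiation, stood at 82.8 and 94.6 CPM at 1 h and at 25.1 and 36.6 at 6 h (-1.55 ± 0.13, adjusted p = 0.020). PDK1, the kinase that shuts pyruvate out of the citric acid cycle, stood at 51.0 and 57.2 CPM at 1 h and at 22.1 and 23.4 at 6 h (-1.25 ± 0.12, adjusted p = 0.021). PFKFB4, which sets the level of fructose 2,6-bisphosphate, stood at 60.5 and 63.1 CPM at 1 h and at 29.4 and 26 at 6 h (-1.16 ± 0.10, adjusted p = 0.020). In all 3 genes each 6 h library lay below each 1 h library.

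ENO2, an enolase, stood at 170 and 185 CPM at 1 h and at 86.7 and 82.5 at 6 h (-1.07 ± 0.11, adjusted p = 0.021). BNIP3L, a relative of BNIP3, stood at 227 and 257 CPM at 1 h and at 130 and 140 at 6 h (-0.84 ± 0.08, adjusted p = 0.021). With these 2 genes, 6 of the 30 hypoxia and glycolysis genes were called lower and 0 higher. Of all 12802 genes with 100 counts, 22 were called lower, which is 0.129% of the 17044 tested.

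Of these 30 genes 28 had a log2 change below 0, with a median of -0.31. In 24 both 6 h libraries lay below both 1 h libraries, against 25.7% of all genes. In all, 11 were called lower in the 4 libraries alone, beside 364 of all 12802 genes. Among the 11 were the collagen prolyl hydroxylase gene P4HA1 (adjusted p = 0.0054), the oxygen sensor gene EGLN1 (adjusted p = 0.027) and LDHA, lactate dehydrogenase (adjusted p = 0.026). The core glycolytic genes GAPDH and PKM had log2 changes of 0.02 and 0.02, with GAPDH at 4952 to 5313 CPM. VEGFA, the angiogenic ligand, stood at 498 and 717 CPM at 1 h and at 467 and 578 at 6 h, where the times overlapped (-0.20 ± 0.17, adjusted p = 0.61). EGLN3 had 0 counts in all 4 libraries.

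Outside the lists, and chosen after their values were seen, AK4 and MIR210HG are known hypoxia-inducible genes. AK4, a mitochondrial adenylate kinase, stood at 42.5 and 47.6 CPM at 1 h and at 15.3 and 17.5 at 6 h (adjusted p = 0.00034 in the 4 libraries alone). MIR210HG, the host transcript of miR-210, stood at 19.3 and 19.5 CPM at 1 h and at 8.02 and 7.88 at 6 h (adjusted p = 0.00099 in the 4 libraries alone). BNIP3P1 and AK4P3, processed copies of BNIP3 and AK4, were also lower there, and reads of such copies cannot be told apart with certainty.

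PPFIA4, a liprin that also lay outside the lists, stood at 28.2 and 28.0 CPM at 1 h and at 6.46 and 5.74 at 6 h (log2 change -2.21 ± 0.16, adjusted p = 0.020). RAPGEF4 stood at 3.59 and 3.88 CPM at 1 h, and at 0.612 and 0.322 at 6 h (-3.03 ± 0.33, adjusted p = 0.027). RAPGEF4 rests on 205 and 225 counts at 1 h and 45 and 23 at 6 h, and it lies beside PDK1 on chromosome 2 (RAPGEF4 at chr2:172735318-173052893, PDK1 at chr2:172555373-172724312, GRCh38.p14). An antisense transcript, RAPGEF4-AS1, overlaps RAPGEF4, and the strand setting of the counting is not known.

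Across the 12802 genes the ratios of the 2 pairs had an SD of 0.35 (untreated) and 0.45 (EV) on the log2 scale and a Pearson r of 0.5. This r is over genes, which are not independent replicates. At least 2-fold changes in the same direction in both pairs were 37 higher and 52 lower, and at least 4-fold changes 4 and 8. Of the 8 genes, 3 were immediate early genes.

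ATF4 and its targets held 3 called members of 29, all lower, beside 0.129% of the 17044 genes tested called lower. ATF4 itself stood at 331 and 356 CPM at 1 h and at 188 and 184 at 6 h (log2 change -0.89 ± 0.11, adjusted p = 0.048). The ATF4 call was lost with no scaling (adjusted p = 0.056, edgeR). With log2(FPKM + 0.1) its change was -0.56 (adjusted p = 0.26, limma). CHAC1, which degrades glutathione, stood at 4.33 and 4.19 CPM at 1 h and at 1.29 and 0.980 at 6 h (-1.91 ± 0.16, adjusted p = 0.020). The CHAC1 call was lost with limma-voom (adjusted p = 0.056). The third called member was VLDLR. All 3 separated the times in both pairs.

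In the 4 libraries alone 10 members were called lower and 2 higher, beside 364 lower and 325 higher of all 12802 genes. The median log2 change was -0.24. TRIB3, a pseudokinase that restrains ATF4, stood at 14.7 and 13.8 CPM at 1 h and at 9.47 and 9.21 at 6 h (adjusted p = 0.034 in the 4 libraries alone). ASNS, asparagine synthetase, stood at 30.8 and 31.3, then 21.4 and 20.5 (adjusted p = 0.020 there). PPP1R15A, which directs the phosphatase of eIF2, stood at 148 and 217, then 78.8 and 104 (adjusted p = 0.00081 there). DDIT4, an inhibitor of mTORC1, was opposite to these, at 16.8 and 9.61 CPM at 1 h and 43.0 and 22 at 6 h (adjusted p = 0.00066 there and 0.12 in the fit of 8).

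GADD45A, a stress and p53 target gene, was the called member of 26 p53 targets, beside 0.129% of the 17044 genes tested called lower. It stood at 76.9 and 99.1 CPM at 1 h and at 38.7 and 42.4 at 6 h (-1.11 ± 0.10, adjusted p = 0.020). The p53 list had a median of 0.09 and did not share that direction, with 17 members above 0.

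Circadian clock genes were mostly lower at 6 h, and 0 of 18 passed the test in the fit of 8 libraries. With an unadjusted p under 0.05, 7 were lower and 1 higher, beside 8.8% lower and 10.4% higher of all 12802 genes. DESeq2 called 3 lower, beside 2.36% lower and 1.62% higher of all. PER1, a repressor of the clock that serum also induces, stood at 13.1 and 26.9 CPM at 1 h and at 7.45 and 5.94 at 6 h (log2 change -1.5 ± 0.68, adjusted p = 0.42). BHLHE40, a repressor induced by hypoxia and growth factors, stood at 132 and 331 CPM at 1 h and at 74.9 and 99.9 at 6 h (-1.27 ± 0.51, adjusted p = 0.37). In both genes the EV 1 h library was the highest.

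The output factor TEF was even between the pairs, at 19.3 and 17.2 CPM at 1 h and 10.8 and 7.80 at 6 h (-0.99 ± 0.22, adjusted p = 0.15, and 0.0059 in the 4 libraries alone). Of the REV-ERB genes, NR1D2 stood at 70.3 and 68.9 CPM at 1 h and 46.5 and 32.9 at 6 h, and NR1D1 at 15.3 and 16.6, then 10.8 and 9.30. ARNTL, the activating partner of CLOCK that REV-ERB proteins repress, was higher, at 8.34 and 9.46, then 11.0 and 14.6 CPM (0.51 ± 0.12, adjusted p = 0.15). The list had a median of -0.44, and 13 of 18 were lower without overlap against 25.7% of all genes. The members called lower in the 4 libraries alone were RORA, TEF, NR1D2, NR1D1, PER2 and NPAS2, beside 364 of all 12802 genes. CLOCK stood between 57.8 and 63.8 CPM.

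Cholesterol and lipid synthesis genes had 0 called members of 30 and a median of -0.12. An unadjusted p under 0.05 was found for 7 lower (8.8% of all genes) and 1 higher (10.4%), and DESeq2 called 4 lower (2.36%). SCD, the fatty acid desaturase, came nearest, at 623 and 560 CPM at 1 h and 374 and 311 at 6 h (log2 change -0.79 ± 0.10, adjusted p = 0.062). INSIG1, which retains the SREBP complex in the endoplasmic reticulum, stood at 60.4 and 95.3 CPM at 1 h, and at 38.1 and 34.8 at 6 h (-1.06 ± 0.19, adjusted p = 0.12). The 6 h libraries lay below both 1 h libraries for both genes.

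SREBF1, the gene of the transcription factor SREBP-1, stood at 102 and 80.6 CPM at 1 h and 66.2 and 52.3 at 6 h (-0.63 ± 0.19, adjusted p = 0.23). SCD, SREBF1 and STARD4, a sterol carrier gene, were among those called lower in the 4 libraries alone. SQLE, squalene epoxidase of sterol synthesis, stood at 40.1 and 38.0, then 36.1 and 34.2 CPM (-0.15 ± 0.12, adjusted p = 0.60).

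NF-kB targets and cytokines had 0 called members of 16 and a median of -0.31. At an unadjusted p under 0.05 there were 6 lower (8.8% of all genes) and 2 higher (10.4%), and DESeq2 called 3 lower (2.36%). NFKBIA, the inhibitor that NF-kB induces, stood at 49.1 and 50 CPM at 1 h and 19.8 and 19.7 at 6 h (-1.33 ± 0.20, adjusted p = 0.095, and 0.00034 in the 4 libraries alone). Targets of YAP and SRF had 0 of 29, with 9 lower at an unadjusted p under 0.05 (8.8% of all genes) and 1 lower by DESeq2 (2.36%), and a median of -0.19. NFKBIA was chosen after its values were seen.

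Of the cytosolic heat shock list, HSPA8 passed the test. This gene of the constitutive chaperone HSC70 stood at 1341 and 1553 CPM at 1 h and at 2655 and 3090 at 6 h (log2 change 0.99 ± 0.09, adjusted p = 0.020). Both pairs rose by nearly the same ratio, with log2 values of 0.98 and 0.99. HSPA8 has pseudogene copies with which reads can be shared. Per length it was the most abundant of the 5 genes that rose, at 1461 TPM (the length-scaled value the authors deposited) in the untreated 1 h library, against 1.45 for DIO2.

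Of the 18 heat shock genes 1 was called higher, beside 0.0293% of the 17044 genes tested. In the list 15 had a log2 change above 0, and the median was 0.27. In the 4 libraries alone 6 were called higher, beside 2.54% of all 12802 genes. HSPH1, a nucleotide exchange factor for such chaperones, stood at 93.2 and 91.3 CPM at 1 h and 144 and 158 at 6 h (0.71 ± 0.11, adjusted p = 0.087). HSPA1A stood at 69.6 and 66.4, then 134 and 125 CPM, and HSPA1B at 86.4 and 81.9, then 170 and 162. These near-identical copies cannot be assigned reads with certainty, and neither passed (adjusted p = 0.68 and 0.66). DNAJB1, their J-domain partner, did not follow, at 133 and 199, then 122 and 130 CPM (-0.37 ± 0.45, adjusted p = 0.75).

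DIO2 rose from 3.77 and 4.19 CPM at 1 h to 16.8 and 25.2 at 6 h (log2 change 2.38 ± 0.24, adjusted p = 0.027). CLK4, which phosphorylates splicing factors, rose from 6.68 and 5.12 to 17.2 and 16 CPM (1.5 ± 0.15, adjusted p = 0.021). RBM14, a coactivator and paraspeckle protein gene, rose from 54.2 and 49.7 to 110 and 129 CPM (1.20 ± 0.11, adjusted p = 0.021). All 3 separated the times in both pairs, and a readthrough transcript overlaps RBM14, so its reads may be shared. CLK1, a relative of CLK4 chosen after its values were seen, stood at 33.4 and 41.5, then 81.7 and 76.7 CPM (adjusted p = 0.0037 in the 4 libraries alone).

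OTX2, the homeobox factor that specifies pigment epithelium, rose from 19.0 and 16 CPM at 1 h to 38.4 and 37.6 at 6 h (1.12 ± 0.11, adjusted p = 0.021). It was the called member of 13 pigment epithelium genes, whose median was 0.25, beside 0.0293% of the 17044 genes tested called higher. Of the 13, 9 had a log2 change above 0 and 4 below it, the lowest at -0.83. MITF, which works with OTX2 on pigment genes, stood at 28.4 and 31.8, then 43.9 and 40.6 CPM (0.49 ± 0.13, adjusted p = 0.18, and 0.035 in the 4 libraries alone). The pigment enzyme genes that these factors drive were at 0 counts, as given above.

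Ribosome biogenesis genes had small differences of 1 direction, and 0 of 33 passed. With an unadjusted p under 0.05, 18 were higher (10.4% of all genes) and 0 lower (8.8%), and DESeq2 called 6 higher (1.62%). Of the 33, 32 had a log2 change above 0, 24 were higher without overlap against 31.2% of all genes, and the median was 0.36. RRP12, a factor of ribosomal subunit export, stood at 48.5 and 44.3 CPM at 1 h and 69.8 and 95.9 at 6 h (0.82 ± 0.15, adjusted p = 0.12, and 0.047 in the 4 libraries alone). POLR1B, a subunit of RNA polymerase I, stood at 25.8 and 28.2, then 36.2 and 47.5 CPM (0.62 ± 0.15, adjusted p = 0.15, and 0.017 there). The EV 6 h library was the highest for both genes, which were chosen after their values were seen. The 31 cytosolic ribosomal protein genes had a median of 0.05 and 0 called members (0 also at an unadjusted p under 0.05 and by DESeq2).

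Cell cycle genes had medians of -0.02 over 30 genes of G1/S and replication and -0.05 over 29 genes of G2/M. Both lists had 0 called members, and an unadjusted p under 0.05 was found for 2 higher and 1 lower in the first and 3 lower in the second (DESeq2 called 0 in each). These counts are near or under the background of 10.4% higher and 8.8% lower. The 13 mitochondrial mRNAs had a median of -0.05 and 0 called members (0 also at an unadjusted p under 0.05 and by DESeq2). COX1, a subunit of cytochrome oxidase, stood at 14213 and 16988 CPM at 1 h and at 14453 and 15642 at 6 h. ND3, a subunit of complex I, had the lowest change, at 565 and 530, then 443 and 505 CPM (-0.21 ± 0.19, adjusted p = 0.64).

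**Figure D3:**
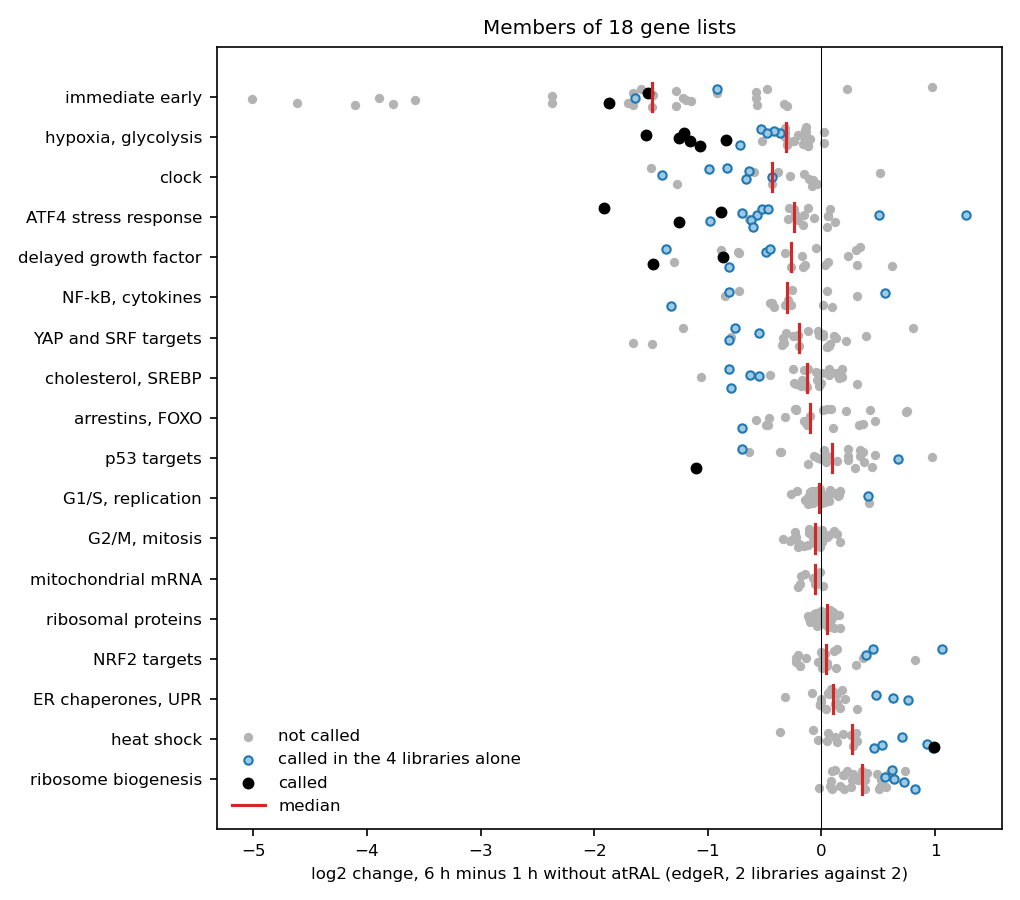
Log2 change from 1 h to 6 h without atRAL for the members of 18 gene lists with 100 or more counts (grey not called, light blue called in the 4 libraries alone, black called, red bar the median of the list). Immediate early genes spread to the left with a median of -1.49, hypoxia and glycolysis genes have the most black points (6), and ribosome biogenesis genes lie to the right with a median of 0.36.

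The remaining genes that fell belong to no list. SH3D21 stood at 40.7 and 38.0 CPM at 1 h and at 20.1 and 17.6 at 6 h (-1.06 ± 0.10, adjusted p = 0.021). The transcription factor gene KLF7, the transmembrane gene CMTM7, C1orf21 and the tyrosine kinase gene ABL2 had log2 changes of -0.99, -0.96, -0.96 and -0.88, with adjusted p from 0.020 to 0.028, and are named here after their values were seen. Their levels at 6 h lay below both 1 h levels.

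In cells with atRAL the same interval gave a different change for 10 of the 27 genes, by the test of the difference itself. Over all genes 656 of 17044 differed (3.85%), 460 with a more positive change with atRAL. The 27 genes were picked by their change without atRAL, which is 1 side of this difference. Their share is therefore not independent of that choice. CHAC1 had a log2 change of -1.91 without and 3.76 with atRAL (difference 5.67 ± 0.22, adjusted p = 0.00031). It stood at 5.54 and 6.44 CPM at 1 h with atRAL, and at 85 and 77.9 at 6 h. ATF4 had -0.89 without and 1.03 with atRAL (difference 1.91 ± 0.15, adjusted p = 0.0040).

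MAFF, NDRG1, HBEGF, GADD45A, VLDLR, KLF7 and ABL2 also had more positive changes with atRAL, with differences of 1.30 to 1.74. RBM14 had 1.20 without and 0.31 with atRAL (difference -0.89 ± 0.15, adjusted p = 0.032). In the ATF4 list 25 of 29 members differed, and its median was -0.24 without and 1.66 with atRAL. Without the untreated 1 h, EV 1 h, untreated 6 h or EV 6 h library the 656 became 32, 43, 5 and 16.

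For 17 of the 27 genes the difference did not pass, which does not show that the changes were alike. Of the 22 genes that fell, 13 were also called lower with atRAL, where 8.64% of all 17044 genes were called lower. Both tests use the spread pooled over the same 8 libraries. A gene of small spread is called more easily in both, so the 2 shares are not an independent comparison. BNIP3 had -1.21 without and -1.04 with atRAL (difference 0.17 ± 0.14, adjusted p = 0.56), and PFKFB4 -1.16 in both (adjusted p = 1.0). PLAU had -1.38 and -1.33, GADD45B -1.53 and -1.43, and HSPA8 0.99 and 1.03. All 5 genes that rose without atRAL were above 0 with it. The hypoxia and glycolysis list had medians of -0.31 without and -0.33 with atRAL, and 1 of its 30 members differed.

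**Figure D4:**
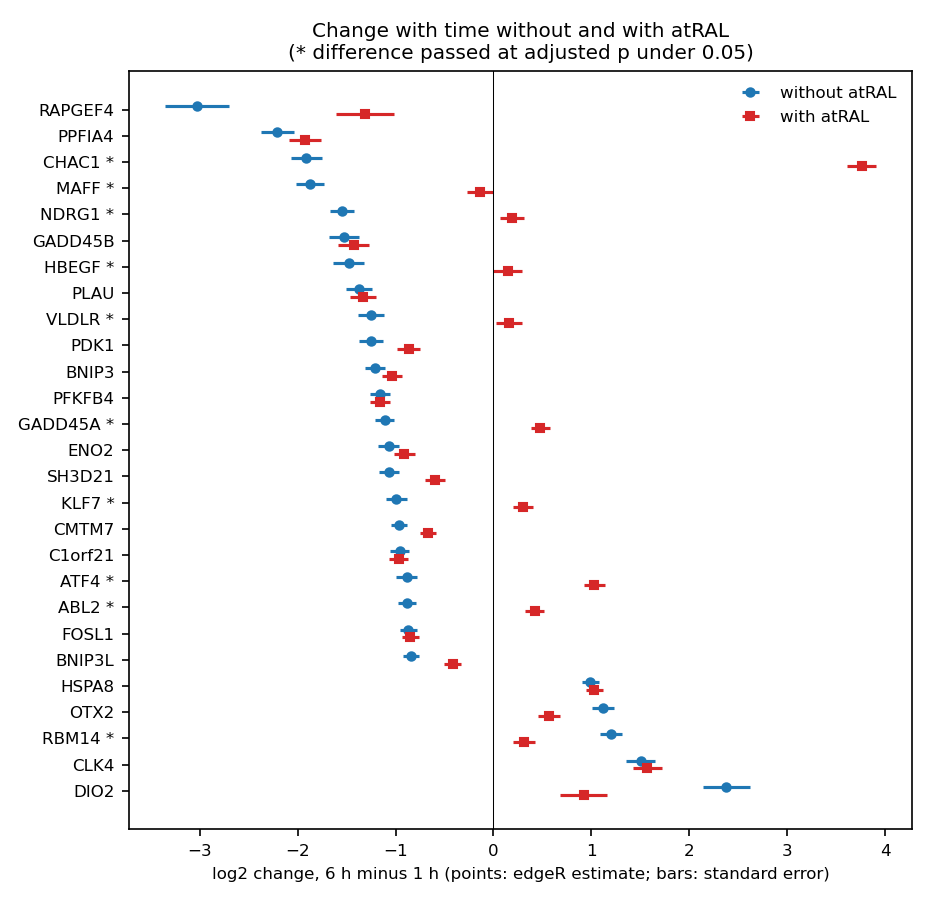
Log2 change from 1 h to 6 h for the 27 called genes without atRAL (blue circles) and with it (red squares), as edgeR estimates with standard errors over 2 libraries against 2; a star marks the 10 genes whose difference passed at an adjusted p under 0.05. CHAC1 lies at -1.91 without and 3.76 with atRAL, and BNIP3 at -1.21 and -1.04.

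The 2 pairs were set against each other as single libraries with no test. Of the 12802 genes, 279 had log2 ratios at least 2-fold apart. FOS and EGR2, both far higher in the EV 1 h library, were among the lowest, at -4.80 and -4.60 for the EV pair minus the untreated pair. SLCO5A1, an anion transporter gene of the solute carrier family, was the lowest at -6.05. It had 0 counts in the untreated 1 h library and 161, 168 and 217 counts in the EV 1 h, untreated 6 h and EV 6 h libraries.

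SEC16B, a gene of endoplasmic reticulum export, stood at -3.89 and LINC02035 at -3.95. At the other end MIR34AHG, the host transcript of miR-34a, had 196, 0, 288 and 259 counts in the untreated 1 h, EV 1 h, untreated 6 h and EV 6 h libraries (6.65). PP7080 followed at 4.97 and NPIPA8, of a family of near-identical copies, at 3.99. VWF, a marker of endothelium, had 11, 15, 17 and 131 counts (2.46), and the EV 6 h library stood apart among the libraries without atRAL. In cells with atRAL at 6 h, VWF stood at 0.566 CPM without EV and 2.29 with EV.

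The 115 genes whose highest count was 100 to 109 had a median log2 change of -0.12, and the 117 genes just outside, at 90 to 99, had -0.01. Counts reached 100 at 6 h only in 375 genes and at 1 h only in 71, and the 6 h libraries were the deeper ones.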

How the data were processed

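The authors made stranded TruSeq mRNA libraries from TRIzol RNA of RPE-1 cells, per the labels' protocols. The deposited read counts are whole numbers per gene and were not normalised, per the file headers. FPKM and TPM of the same table were computed by the authors before deposition, per the file headers. FPKM entered alternatives only, and TPM only compared levels between genes. HISAT2 2.1.0, StringTie 2.1.3b and GRCh38 are named, per the submitters' processing notes; which program counted reads, and on which strand, is not given in the sources used here.

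Genes passing filterByExpr (minimum count 10; 17044 genes) were scaled by TMM and tested with edgeR 4.0.16 (R 4.3.3; quasi-likelihood F test, robust). Over 8 libraries the model had a level for each time with and without atRAL, and an EV effect for each atRAL status (6 coefficients, 2 residual degrees of freedom, biological coefficient of variation 13.9%). P-values were two-sided and adjusted by Benjamini-Hochberg over 17044 genes, with calls at 0.05. Errors of log2 changes are standard errors (SE), and pair ratios used a prior count of 2. Counts ranged from 45566237 to 71822269 per library. Scripts were tested on simulated data. Alternatives used DESeq2 1.42.0 and limma 3.58.1.

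Members and the 36 gene lists were chosen with earlier results of these data known. Named genes are the 15 highest and 15 lowest called genes with 1.5-fold change in both pairs, up to 5 called members of each list, all immediate early, clock, cholesterol and mitochondrial mRNA members, and the 5 largest pair differences in each direction. Unlisted genes and uncalled list members named beyond these were chosen after their values were seen. Some genes that this rule names are not reported here. Gene identifiers of 44698 genes matched RefSeq.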

Additional observations from a re-analysis of the deposited data

Results flagged for a closer look

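For 10 of the 27 genes called between 1 h and 6 h without atRAL, the change with time differed between cells with and without atRAL, by edgeR's test of the difference (2 libraries against 2 on each side, adjusted over 17044 genes). The log2 differences, with atRAL minus without, were 5.67 for CHAC1 (adjusted p = 0.00031), 1.91 for ATF4 (adjusted p = 0.0040), 1.74 for MAFF (adjusted p = 0.0083) and 1.73 for NDRG1 (adjusted p = 0.0071). They were 1.62 for HBEGF (adjusted p = 0.015), 1.59 for GADD45A (adjusted p = 0.0050) and 1.41 for VLDLR (adjusted p = 0.015). KLF7 and ABL2 had 1.30 and 1.30 (adjusted p = 0.0088 and 0.0071), and RBM14 had -0.89 (adjusted p = 0.032). The choice of the 27 genes used the change without atRAL, which is also part of this test.

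In 2 genes the untreated and the EV pair moved at least 2-fold in opposite directions, and the difference was not tested. TMEFF1, a transmembrane protein gene, had 182 and 99 counts at 1 h and 6 h in the untreated pair (log2 ratio -1.23) and 62 and 174 in the EV pair (1.17). LINC02035 had 24 and 200 counts in the untreated pair (2.60) and 175 and 83 in the EV pair (-1.35).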

How the results depend on the processing

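The counts of called genes depended on how the spread was estimated. All 27 genes kept their direction in the 20 alternatives run. These reuse the same libraries, in which the 27 genes did not overlap between the times, so the kept direction adds no support. Against 5 higher and 22 lower genes, 16 of them in a list, the 4 libraries alone gave 334, 376 and 84. Leaving out the EV term gave 67, 94 and 25, and 1 EV effect shared by all cells gave 124, 170 and 39. DESeq2 gave 208, 302 and 72, and log2(FPKM + 0.1) gave 10, 10 and 10. Without a filter on low counts the result was 0, 0 and 0 (2802 genes at an unadjusted p under 0.05), and log2(FPKM + 1) also gave 0 (2596 genes at an unadjusted p under 0.05). Other scalings, limma-voom and a minimum of 100 counts kept each count within 1.5 times. Of the 27 calls, 1 was lost with no scaling and 1 with limma-voom. With a library left out, the fit of the other 7 gave 0 in each case. Fits of 3 of the 4 libraries, added after seeing the data and also without the EV term, gave 13, 78 and 47 without untreated 1 h, 6, 17 and 12 without EV 1 h, 1119, 935 and 162 without untreated 6 h, and 268, 345 and 80 without EV 6 h. There a lone library was assumed to vary like the other group. The cause was not tested. The 656 genes whose change differed with atRAL became 1368 with DESeq2 and 5 to 1800 with a library left out. The 279 genes whose pairs were 2-fold apart became 85 at 3-fold. Replicate numbers pair nothing, since each condition has 1 library. Pairing by EV status is part of the model, and leaving it out is given above. Scaling moved the median of all genes by less than 0.05 on the log2 scale. Depth limits genes with few counts, such as RAPGEF4 at 6 h.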

Other observations

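Some genes outside the lists separated the times in both pairs and were called in the 4 libraries alone, but not in the fit of 8, and were chosen after their values were seen. SLC9A3, a sodium and proton exchanger gene, stood at 4.19 (untreated) and 3.63 CPM (EV) at 1 h and at 16.7 and 17.7 at 6 h (adjusted p = 0.00034, edgeR, 4 libraries). CDK18, a cyclin-dependent kinase gene, stood at 23.0 and 24.0 CPM at 1 h and at 6.32 and 4.23 at 6 h (adjusted p = 0.0014). SOCS3, a feedback inhibitor of cytokine receptors, stood at 31.1 and 34.4 CPM at 1 h and at 17.8 and 13.3 at 6 h (adjusted p = 0.014). PNRC1, a nuclear receptor coactivator gene, stood at 9.17 and 10.3 CPM at 1 h and at 32.1 and 22.7 at 6 h (adjusted p = 0.012). PCDH18, a protocadherin gene, stood at 4.96 and 4.99 CPM at 1 h and at 15 and 11.5 at 6 h (adjusted p = 0.0030), and its change differed with atRAL (adjusted p = 0.0091).

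Antioxidant genes of NRF2 held 3 members of 23 called higher in the 4 libraries alone, beside 2.54% of all 12802 genes. The list as a whole had a median log2 change of 0.04, with 7 members below 0. The fit of 8 libraries and DESeq2 called 0 of its members. HMOX1, heme oxygenase 1, stood at 13.7 and 16.6 CPM at 1 h and at 32.2 and 30.7 at 6 h (adjusted p = 0.0030 there and 0.39 in the fit of 8). The endoplasmic reticulum chaperone list also held 3, of 22 members with a median of 0.1, and 0 were called in the fit of 8. Among the 3 was DNAJB9, at 15.2 and 16.8, then 26.2 and 27.9 CPM (adjusted p = 0.0082 in the 4 libraries alone). TUBB3, a neuronal tubulin gene and the 1 neural marker with 100 counts, stood at 198 and 202 CPM at 1 h and at 297 and 389 at 6 h (adjusted p = 0.011 there), while RCVRN, ARR3, SAG and GNAT1 were at 0 counts.

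Zinc finger genes with a ZNF symbol numbered 421, of which 16 were called higher and 9 lower in the 4 libraries alone. The share called higher was 3.8%, beside 2.54% of all 12802 genes, and the median log2 change was 0.11. This group was chosen after its values were seen and has no test.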
